A study of Mus musculus with 12 samples.

Results

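The hippocampus of irradiated mice was compared with that of sham-irradiated mice in 6 of the study's 12 RNA sequencing libraries, 3 per group, taken by their tissue label. The mice were male C57BL/6 animals that arrived at 7 weeks of age and were acclimatized for 1 week. Irradiated mice (IR) received a single X-ray dose of 10 Gy to the whole brain, sham-irradiated mice (Con) were placed on the same platform without a dose, and tissue was taken 3 months later. Expression is given in FPKM, the fragments counted for a gene scaled to the length of its transcript and to all mapped fragments. Of the 23183 gene symbols in the files, the 14043 listed at 0.5 FPKM or more in at least 3 of the 6 libraries were compared. The labels number the libraries of a group from 1 to 3 and do not say that they came from separate animals, so the p values measure the spread between these libraries.

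The hippocampus takes part in memory and in the control of anxiety. Its principal neurons are the granule cells of the dentate gyrus and the pyramidal cells of the CA fields, and neural stem cells of the dentate gyrus go on producing granule cells in the adult. Ionizing radiation breaks DNA, which activates p53 and its target genes. Dividing progenitors, microglia, oligodendrocyte precursors and the cells of blood vessels are among the brain cells known to respond to it.

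The tissue label was checked against marker genes. Of 18 markers of dentate granule cells, 12 were higher in each hippocampus library than in each cortex library, and 9 of 17 markers of neocortical layers were lower in each of them. Not all libraries of a group were alike. Con 3 correlated best with IR 2 and IR 3 (r = 0.994 and 0.993 across the 14043 tested genes) and less well with Con 1 and Con 2 (0.989 and 0.990). It nevertheless followed its label for *Cdkn1a*, which codes for p21, an inhibitor of the cell cycle that p53 induces, and which was listed at 2.27, 2.09 and 2.0 FPKM in Con 1 to 3 and at 6.25, 6.06 and 6.23 FPKM in IR 1 to 3. Con 2 and IR 1 held RNA of the choroid plexus, the tissue that secretes cerebrospinal fluid. Its folate receptor gene *Folr1* was listed at 0.321, 9.91 and 1.3 FPKM in Con and at 13.3, 0.972 and 0.484 FPKM in IR. The summed FPKM of 20 choroid plexus genes was 1401 in Con 2 and 2063 in IR 1 against 57.2 to 123 in the other libraries. Con 1 held *S100a8*, a gene of neutrophils, at 382 FPKM, while no other library exceeded 0.316 FPKM, although its partner *S100a9* stood at 0.652 FPKM there. Counts of list members in the hippocampus were recomputed with each library left out, and without Con 2 and IR 1 together.

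Values were compared as log2(FPKM + 1) with limma, a linear model with moderated variances, and a fold change below is a difference of means on that scale, given with its standard error. At a Benjamini-Hochberg adjusted p under 0.05, 4 genes passed (0.0285% of those tested). An unadjusted p under 0.05 was found for 1958 genes (13.9%), 991 of them higher in IR (7.06%) and 967 lower (6.89%). A fold of at least 1.5 in addition left 74 genes (0.527%), 34 higher (0.242%) and 40 lower (0.285%). In the text a gene is said to rise or fall when its unadjusted p was under 0.05, and the adjusted p is 0.05 or more unless it is given. The median log2 fold change of all tested genes was -0.01. Counts of list members are to be read against the shares above. Without Con 3, 3613 genes had an unadjusted p under 0.05 (10.9% higher and 15.1% lower) and 880 an adjusted p under 0.05. Without Con 2 and IR 1, limma gave 769 genes with an unadjusted p under 0.05 (5.59%, with 3.24% higher and 2.35% lower) and 0 with an adjusted p under 0.05. With 1 other library left out, fewer genes had an unadjusted p under 0.05 as well. There were 1273 without Con 1, 1296 without Con 2, 1161 without IR 1, 1362 without IR 2 and 1330 without IR 3. List counts with libraries left out are to be read against these numbers. Of the 1958 genes, 24 had passed the filter only through the group in which they were higher and so had to differ, 4 of them among the 74 and 1 among the 4. The named ones are *Ccl12*, *Sap25*, *Snord15b* and *Prc1*, whose values are given without a p. Of the 167 genes named in the text that rose or fell, 102 did so with every single library left out, 19 in 4 or 5 of the 6 fits and 46 in 3 or fewer. *Hapln1* did in none of the 6 fits, and *C1qc*, *C1ql1*, *Ccng1*, *Cxcl12*, *Ercc2*, *Frzb*, *Hspe1*, *Rpl27*, *Slc1a3* and *Slc32a1* in 1. Without Con 2 and IR 1 together, 94 of the 167 passed in the same direction, 69 no longer passed and the rest were under the filter. With the replicate number as a block in the limma fit, 142 of the 167 still passed and 25 no longer did.

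**Figure D1:**
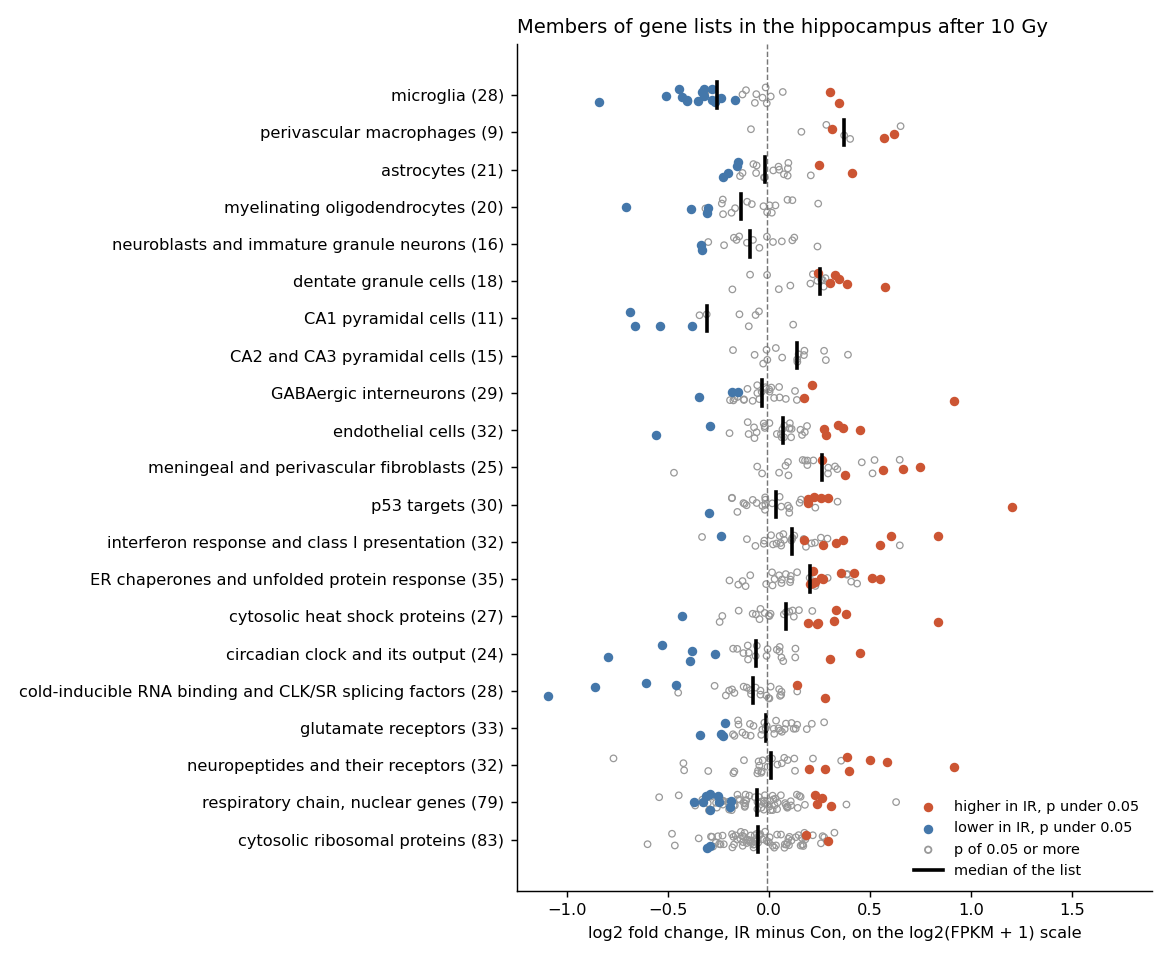
Log2 fold change (IR minus Con) of every tested member of 21 gene lists in the hippocampus, with the number of tested members in parentheses. The thick bar is the median of a list, the dashed line that of all tested genes (-0.01), filled points had an unadjusted p under 0.05 from limma, and the medians of microglia (-0.26) and CA1 pyramidal cells (-0.31) lie to the left of that line, and those of perivascular macrophages (0.37), dentate granule cells (0.25) and endoplasmic reticulum chaperones (0.20) to the right.

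Many genes of microglia, the resident macrophages of the brain, were lower in IR. Of the 28 tested, 15 fell and 2 rose, against 6.89% and 7.06% of all tested genes, and the median log2 fold change was -0.26. In 14 of the 28, each IR library lay below each Con library, which was the case for 9.36% of all tested genes (19.8% did not overlap in either direction). *Csf1r*, the receptor on which microglia depend for survival, was listed at 22.3, 20.5 and 24.1 FPKM in Con and at 12, 11.7 and 12.2 FPKM in IR (log2 fold change -0.84 ± 0.07, adjusted p = 0.0126 from limma). The 2 groups of libraries are separated for this gene, and Con 3 lies with the other Con libraries. The fractalkine receptor gene *Cx3cr1* fell from 15.4, 13.1 and 13 FPKM to 8.93, 10.7 and 11.1 FPKM (-0.41 ± 0.10). *Siglech*, a lectin gene, fell from 3.74, 3.89 and 4.06 FPKM to 2.39, 2.88 and 2.67 FPKM (-0.43 ± 0.09), and the purinergic receptor gene *P2ry12* from 13.3, 14.7 and 15 FPKM to 11.7, 12.2 and 10.002 FPKM (-0.32 ± 0.09). In each of these genes the highest IR library stayed below the lowest Con library. *P2ry13*, *Mpeg1*, *Selplg*, *Hpgds*, *Ctss* and *Tmem119* fell as well, with log2 fold changes between -0.51 and -0.24. Of the 28 genes, 11 did not pass the test, and 4 had a log2 fold change above 0. The genes that rose were *Golm1*, a Golgi protein gene, from 26.7, 29.6 and 26.7 FPKM to 34.1, 35.2 and 37 FPKM (0.35 ± 0.07), and *Fcrls* (0.30 ± 0.12). From bulk tissue, fewer microglia and less of these RNAs in each microglial cell cannot be told apart. Between 11 and 15 members fell and 1 to 3 rose with any 1 library left out, and 9 fell without Con 2 and IR 1.

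Genes of the ligands of this receptor moved the other way. *Il34*, made by neurons and 1 of the ligands of CSF1R, was listed at 16, 15.9 and 17.5 FPKM in Con and at 23.8, 23.4 and 24.5 FPKM in IR (log2 fold change 0.51 ± 0.06, unadjusted p = 3.94e-05, adjusted p = 0.0823 from limma). *Csf1*, the gene of the other ligand, rose from 6.24, 7.23 and 7.07 FPKM to 8.9, 8.26 and 8.21 FPKM (0.27 ± 0.08). Both genes separated the groups in all 6 libraries and rose with every single library left out. In the cortex the log2 fold change of *Il34* was 0.01, and the difference between the tissues was 0.50 (unadjusted p = 2.34e-05). Among the 18 tested chemokine and cytokine genes, 5 rose and 3 fell. *Cxcl12*, which guides migrating progenitors, rose (0.17 ± 0.07) and so did *Il16* (0.35 ± 0.09), which is also counted among the granule cell markers below. *Ccl12*, a monocyte chemokine gene and another of the 5, was listed at 0, 0.197 and 0.329 FPKM in Con and at 0.768, 1.95 and 1.71 FPKM in IR and passed the filter through IR only. *Ccl17*, a chemokine gene of dendritic cells and neurons, fell from 1.79, 0.857 and 0.883 FPKM to 0.165, 0.191 and 0.553 FPKM (-0.73 ± 0.19). *Il33*, an alarmin of astrocytes and oligodendrocytes, fell from 19.7, 14.4 and 15.8 FPKM to 11.3, 13.3 and 11.8 FPKM (-0.42 ± 0.12), and *Tgfb1* from 2.71, 3.64 and 3.08 FPKM to 2.2, 2.57 and 2.01 FPKM (-0.34 ± 0.11). The number of these genes that rose was 3 without IR 1 or IR 3, *Il34*, *Csf1* and *Il16* each time.

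Macrophages at the vessels and meninges are a separate population from microglia. Of 9 tested genes of these cells, 3 rose and none fell, with a median log2 fold change of 0.37. *Mrc1*, the mannose receptor that defines them, was listed at 0.309, 0.173 and 0.603 FPKM in Con and at 1.38, 1.01 and 0.695 FPKM in IR (0.57 ± 0.16). *Cd74*, which chaperones class II molecules, rose from 1.52, 1.23 and 0.841 FPKM to 2.71, 2.2 and 2.18 FPKM (0.62 ± 0.13), and the scavenger receptor gene *Stab1* from 2.12, 1.88 and 2.28 FPKM to 3.41, 2.58 and 2.57 FPKM (0.31 ± 0.11). IR libraries were above all Con libraries for the 3 genes, at low levels throughout. *Pf4*, also of these cells, was listed at 0, 0.166 and 0.993 FPKM and 1.99, 0.903 and 0.585 FPKM and overlapped between the groups (unadjusted p = 0.0618). Another 6 genes of the list were under the filter and have no test. Among them *Cd163*, a scavenger receptor gene of these cells, went the other way, at 0.282, 0.198 and 0.226 FPKM in Con and 0.0604, 0.173 and 0.187 FPKM in IR, with all IR libraries below all Con libraries. *Lyve1* was at 0.214, 0.233 and 0.222 FPKM and 0.127, 0.240 and 0.241 FPKM and overlapped, and 4 of the 6 had the higher mean in IR. The mean of the list did not overlap between the groups, 2 to 5 members rose with any 1 library left out, and 1 rose without Con 2 and IR 1.

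Among 24 tested genes of complement and phagocytosis, 2 rose and 5 fell. *Lyz2*, the lysozyme of macrophages, had the largest difference of the list, 2.75, 1.37 and 2.58 FPKM in Con against 10.1, 5.91 and 5.24 FPKM in IR (1.30 ± 0.24, unadjusted p = 7.25e-04). *Spp1*, the osteopontin gene, rose from 0.917, 1.18 and 1.19 FPKM to 1.54, 2.28 and 1.8 FPKM (0.45 ± 0.12). The genes that fell were *Cd14*, a co-receptor for bacterial lipopolysaccharide, *Itgam*, the cathepsin genes *Ctsl* and *Ctsz*, and the complement gene *C1qc*. *Cd14* went from 0.918, 1.37 and 0.954 FPKM to 0.628, 0.437 and 0.546 FPKM (-0.43 ± 0.12). *Itgam*, the alpha chain of complement receptor 3, went from 6.57, 5.01 and 4.98 FPKM to 3.74, 3.91 and 4.65 FPKM (-0.35 ± 0.12) and is also counted among the microglial genes above. The count of genes that fell was 1 without Con 1, 2 without IR 1 or IR 2 and 3 without Con 2 or IR 3.

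Genes induced by interferon were more often higher than lower. Interferons signal through factors such as STAT2 and IRF9, which bind a response element in the promoters of their target genes. Of the 32 tested, 7 rose and 1 fell, 26 had a log2 fold change above 0 (47.3% of all tested genes did), and the median was 0.12. *Bst2*, which tethers budding viruses to the cell, was listed at 3.56, 2.81 and 2.4 FPKM in Con and at 5.89, 6.74 and 5.36 FPKM in IR (0.84 ± 0.13, unadjusted p = 1.49e-04). *Irf9* rose from 2.28, 2.52 and 3.44 FPKM to 5.11, 3.91 and 5.04 FPKM (0.61 ± 0.14). Both genes separated the groups without overlap. *Ifit1* rose from 0.587, 0.345 and 0.482 FPKM to 0.835, 0.948 and 0.908 FPKM (0.37 ± 0.11), *Lgals3bp* from 4.45, 7.06 and 4.84 FPKM to 8.87, 8.69 and 7.39 FPKM (0.55 ± 0.15), and *Irgm1* and *Ifi27* by 0.33 ± 0.13 and 0.18 ± 0.06. *Ifit2* fell from 2.74, 2.45 and 2.4 FPKM to 1.98, 1.85 and 2.14 FPKM (-0.24 ± 0.09). Between 6 and 8 members rose and 0 to 2 fell with any 1 library left out, and 8 rose without Con 2 and IR 1.

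The letters GAAANNGAAA, a core of the interferon response element, were searched on both strands in the 250 bases before the start of each gene, from RefSeq promoters on GRCm38.p6 with 1 start per gene. They occurred in 10 of the 28 promoters of the list that could be matched and in 3.06% of 27025 promoters. The 3 genes that rose and held them are shown, because they are the members that both rose and hold the letters, each in its own direction of reading with the matches in capitals. Matches that overlap run together in 1 stretch of capitals, and *Ifit1* holds them on the opposite strand.
Bst2 (chr8:71537473-71537722, minus strand): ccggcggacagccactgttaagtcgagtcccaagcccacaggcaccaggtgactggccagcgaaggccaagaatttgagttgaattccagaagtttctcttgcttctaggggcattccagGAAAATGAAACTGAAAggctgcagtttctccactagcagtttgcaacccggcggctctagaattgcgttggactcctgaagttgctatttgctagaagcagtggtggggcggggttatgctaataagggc
Ifit1 (chr19:34640639-34640888, plus strand): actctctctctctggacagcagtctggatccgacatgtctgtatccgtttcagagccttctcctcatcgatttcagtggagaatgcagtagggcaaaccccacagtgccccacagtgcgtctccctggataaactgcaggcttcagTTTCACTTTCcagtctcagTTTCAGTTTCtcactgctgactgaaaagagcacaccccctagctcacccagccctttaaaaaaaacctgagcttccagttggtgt
Irgm1 (chr11:48871421-48871670, minus strand): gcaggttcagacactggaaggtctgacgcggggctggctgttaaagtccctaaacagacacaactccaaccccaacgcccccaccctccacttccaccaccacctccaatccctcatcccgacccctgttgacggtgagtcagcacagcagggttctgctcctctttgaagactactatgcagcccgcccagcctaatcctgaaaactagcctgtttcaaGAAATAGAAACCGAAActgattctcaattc
The nearest match begins 124 bases before the start of *Bst2*, 85 before that of *Ifit1* and 24 before that of *Irgm1*. A match is a description of these letters only, and *B2m*, a light chain gene of class I molecules that holds a match, was at 68.6, 64.6 and 68.1 FPKM and 72.4, 77 and 70.5 FPKM (unadjusted p = 0.0839).

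Some chaperone genes of the endoplasmic reticulum rose, with IR 1 well above the other libraries. These genes are induced by the unfolded protein response when misfolded proteins build up in the secretory pathway. Of the 35 tested, 10 rose, none fell, 25 did not pass the test, and 29 had a log2 fold change above 0 (median 0.20). *Hspa5*, the chaperone BiP, was listed at 85.3, 86.2 and 72.5 FPKM in Con and at 166, 94.8 and 108 FPKM in IR (0.55 ± 0.19, unadjusted p = 0.0195). *Xbp1*, a transcription factor of the response, rose from 20.4, 22.2 and 22.6 FPKM to 41.6, 26.2 and 28.4 FPKM (0.51 ± 0.15). In both genes IR 1 stood far above IR 2 and IR 3, which were themselves above all Con libraries. *Pdia3*, a disulfide isomerase gene, had the same form with 57.9, 58.8 and 56.3 FPKM in Con and 83.9, 63.8 and 62.9 FPKM in IR (0.27 ± 0.11). *Syvn1* and *Derl2*, of the pathway that returns misfolded proteins to the cytosol, rose from 12.7, 14.8 and 16.4 FPKM to 19.3, 16.9 and 16.7 FPKM (0.26 ± 0.10) and by 0.23 ± 0.08. *Ppp1r15a*, which ends the block of translation in this response, rose from 4.47, 4.57 and 4.69 FPKM to 5.2, 5.31 and 5.79 FPKM (0.21 ± 0.07), while *Ddit3*, the gene of its death-promoting factor CHOP, was at 21, 17.4 and 14.9 FPKM and 16.4, 17.5 and 19.7 FPKM (unadjusted p = 0.90). Without IR 1, 3 members rose in place of 10, and without both Con 2 and IR 1, 2 did. The counts were 5 without Con 1 and 6 without Con 2. Over all tested genes, 1161 passed in either direction without IR 1 and 769 without Con 2 and IR 1, against 1958 with all libraries. Without Con 3, 8 members rose and 4 fell. IR 1 and Con 2 are the libraries with choroid plexus RNA. The plot of list means by library gives the list relative to the mean of the 6 libraries on the log2 scale. It lay at -0.05, -0.03 and -0.17 in Con 1 to 3 and at 0.23, -0.01 and 0.03 in IR 1 to 3.

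Promoters of these genes are known for the endoplasmic reticulum stress element. Its letters, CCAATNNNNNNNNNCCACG, were found on either strand in 9 of the 31 matched promoters of the list and in 0.118% of all 27025 promoters. Of the 9 genes of the list that rose and could be matched, 2 held it, *Hspa5* and *Syvn1*, shown with the match in capitals to set the element beside the genes' values.
Hspa5 (chr2:34771840-34772089, plus strand): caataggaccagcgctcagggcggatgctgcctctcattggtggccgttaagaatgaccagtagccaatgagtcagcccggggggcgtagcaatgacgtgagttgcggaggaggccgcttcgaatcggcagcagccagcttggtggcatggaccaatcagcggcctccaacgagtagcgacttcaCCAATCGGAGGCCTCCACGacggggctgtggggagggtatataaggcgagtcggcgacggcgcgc
Syvn1 (chr19:6046326-6046575, plus strand): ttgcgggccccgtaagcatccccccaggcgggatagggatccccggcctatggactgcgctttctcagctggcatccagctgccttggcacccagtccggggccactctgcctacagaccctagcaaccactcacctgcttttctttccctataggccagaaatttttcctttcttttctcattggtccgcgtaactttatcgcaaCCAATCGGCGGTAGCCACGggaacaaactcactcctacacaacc
The match begins 65 bases before the start of *Hspa5* and 44 bases before that of *Syvn1*. *Dnajc3*, with the element as well, was at 13.3, 13.3 and 12.2 FPKM and 18.1, 13.5 and 14.7 FPKM (unadjusted p = 0.0592), and *Canx*, also with it, had a log2 fold change of -0.09.

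**Figure D2:**
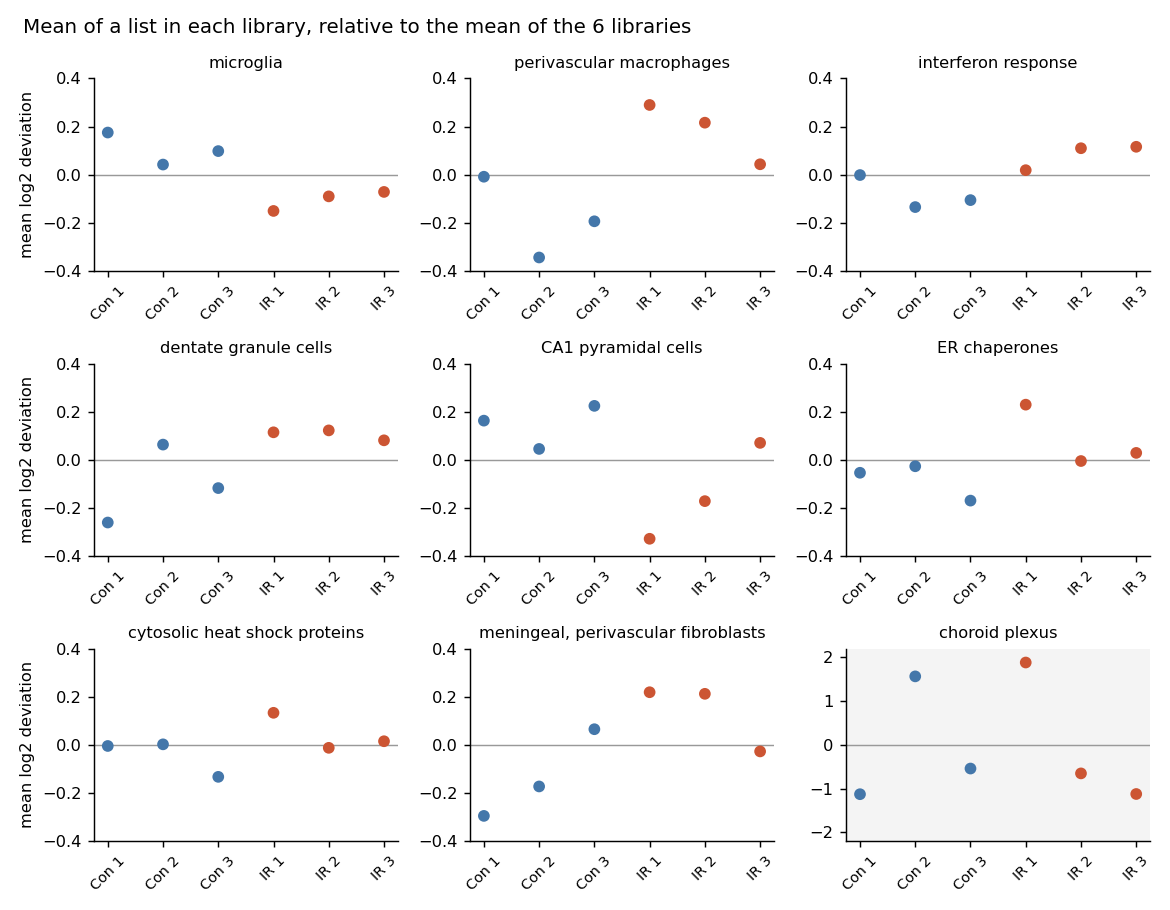
Mean over the tested members of a list of log2(FPKM + 1) in each library, minus the mean of the 6 libraries, for 9 lists (Con blue, IR orange; the shaded choroid plexus panel has a wider axis). Con and IR do not overlap for microglia, perivascular macrophages, the interferon response, dentate granule cells and endoplasmic reticulum chaperones. For the chaperones IR 1 stands above the rest, and for CA1 pyramidal cells IR 3 lies within the range of Con.

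The cytosolic heat shock proteins showed a similar picture. Of 27 tested genes, 7 rose and 1 fell (median 0.08). *Hsf1*, the transcription factor of the heat shock response, rose from 11.7, 13 and 15.3 FPKM to 17.7, 16.6 and 16.6 FPKM (0.33 ± 0.09). The inducible chaperone gene *Hspa1a* rose from 2.6, 3.39 and 3.1 FPKM to 4.8, 4.0 and 3.95 FPKM (0.38 ± 0.11), and the constitutive *Hspa8* from 875, 830.3 and 839 FPKM to 1010.1, 923 and 980.3 FPKM (0.19 ± 0.07). *Hspb1*, a small heat shock protein gene, was listed at 3.32, 6.55 and 6.93 FPKM in Con and 14.7, 8.94 and 8.45 FPKM in IR (0.84 ± 0.27), with the lowest value in Con 1 and the highest in IR 1. *Cryab*, another small heat shock protein gene, rose from 43.7, 48.5 and 52.3 FPKM to 72, 57.7 and 52.6 FPKM (0.32 ± 0.12). *Hspe1*, the mitochondrial cochaperone, fell (-0.43 ± 0.18), with Con 3 at 63.6 FPKM beside IR at 67.9, 64.5 and 64.8 FPKM and Con 1 and Con 2 above both. The number that rose was 3 without IR 1, 4 without Con 2 or IR 3, and 2 without both Con 2 and IR 1. Without Con 3, 6 rose and 6 fell, and none fell with any other library left out. Of 24 tested antioxidant genes, 4 rose and 2 fell, and *Txn1*, the thioredoxin gene, fell from 59.7, 56.6 and 49.1 FPKM to 41.1, 43.1 and 38.2 FPKM (-0.42 ± 0.09). *Nqo1*, a usual target of NRF2, was at 2.34, 1.48 and 2.58 FPKM and 3.36, 2.57 and 2.4 FPKM (unadjusted p = 0.117). No antioxidant gene rose without Con 2, without IR 1 or without IR 2, 1 rose without Con 1 and 2 without IR 3. Without Con 3, 5 rose and 5 fell, and 1 fell with any other library left out. The letters GAANNTTCNNGAA of the heat shock element were found on either strand of 2 of the 22 matched promoters of heat shock genes, *Hspe1* and its neighbour *Hspd1*, and in 0.403% of all 27025, and in none of the 4 matched genes that rose. The searched stretches of *Hspe1* and *Hspd1* overlap, and both hold the same site, read from opposite strands.

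Of the targets of p53, *Cdkn1a* had by far the largest difference, with a log2 fold change of 1.20 ± 0.08 and, from limma, an adjusted p of 0.00175. Of 30 tested targets, 6 rose and 1 fell, and the median of the list was 0.03. The sestrin genes *Sesn2* and *Sesn1*, which act on oxidative stress and mTOR, rose from 4.43, 5.1 and 5.07 FPKM to 6.2, 5.65 and 6.74 FPKM (0.29 ± 0.09) and from 19.1, 20.9 and 19.5 FPKM to 23, 22.3 and 23 FPKM (0.19 ± 0.06). *Trp53inp1*, a cofactor of p53, rose from 2.13, 2.69 and 2.66 FPKM to 3.3, 3.08 and 3.12 FPKM (0.26 ± 0.09), and *Ccng1* from 16.8, 18.7 and 20.6 FPKM to 21.2, 22.2 and 21.1 FPKM (0.20 ± 0.08). IR libraries lay above all Con libraries for each of these genes. *Mdm2*, which degrades p53 and is itself a target, was at 16, 19.3 and 17.3 FPKM in Con and 17.9, 16.8 and 17.1 FPKM in IR (unadjusted p = 0.82). *Plk2*, a kinase gene, fell from 91.2, 84.8 and 82.6 FPKM to 60.6, 69.9 and 80.7 FPKM (-0.30 ± 0.10). The count that rose was 3 without IR 2 and 4 without Con 1, Con 2 or IR 1, with *Cdkn1a*, *Sesn1* and *Sesn2* among them each time. Without Con 3, 4 targets fell. Among 15 tested CDK inhibitors and cyclins, *Cdkn1a*, *Ccnd2* and *Rbl2* rose and *Cdkn2c* fell. *Ccnd2*, the cyclin of neural progenitors, rose from 19.5, 21.3 and 21.4 FPKM to 27.6, 23.3 and 26 FPKM (0.29 ± 0.08), *Rbl2*, of the retinoblastoma family, by 0.21 ± 0.08, and *Cdkn2c*, the gene of the inhibitor p18, fell from 1.26, 2.11 and 1.28 FPKM to 1.08, 0.87 and 1.01 FPKM (-0.34 ± 0.14). Of the 32 tested genes of DNA repair and checkpoints, 1 rose, *Ercc2* (0.24 ± 0.09), and none fell. *Cdkn2c* did not pass without Con 2 or any 1 of the IR libraries, and without Con 3, 3 genes of its list fell. No repair gene rose without Con 1 or any 1 of the IR libraries, and 2 fell without IR 2.

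Of 15 tested histone genes of the clusters, 3 rose and none fell (median 0.27). *Hist1h2bc* rose from 18.6, 16.5 and 25.2 FPKM to 34.4, 33.9 and 29.3 FPKM (0.69 ± 0.14), *Hist1h2be* from 1.06, 1.2 and 1.03 FPKM to 1.93, 2.0 and 1.55 FPKM (0.43 ± 0.10), and *Hist3h2a* from 39.8, 48.7 and 40.4 FPKM to 54.4, 51.6 and 60.2 FPKM (0.36 ± 0.10). Another 53 histone genes were under the filter, and the paralogs are close in sequence, so that reads may have been shared among them. The count that rose was 5 without IR 1 or IR 3.

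Many markers of dividing cells and several of neuroblasts were at very low levels, and those too low to test had lower means in IR. *Mki67*, *Top2a* and *Cdk1*, the usual markers of dividing cells, and *Eomes*, *Igfbpl1* and *Draxin*, markers of progenitors and neuroblasts, were under the filter and have no test, but each had the lower mean in IR. *Top2a* was listed at 0.405, 0.188 and 0.297 FPKM in Con and at 0.122, 0.135 and 0.136 FPKM in IR, and *Eomes*, which marks intermediate progenitors, at 0.213, 0.190 and 0.0607 FPKM and at 0.0147, 0.0453 and 0.0303 FPKM. In these genes and in *Draxin* all IR libraries were below all Con libraries, while *Mki67*, at 0.221, 0.167 and 0.199 FPKM and 0.159, 0.168 and 0.190 FPKM, overlapped, as did *Cdk1* and *Igfbpl1*. Of the 16 proliferation genes listed above 0 but under the filter, all 16 had the lower mean in IR, against 49.1% of the 4956 such genes in the files, and 3 did not overlap (4.1% of those genes had all IR below all Con). With 1 library left out the number with the lower mean in IR was at least 14, and without Con 2 and IR 1 it was 15. Of 23 tested proliferation genes, 2 rose and 4 fell, and 12 had a log2 fold change below 0. *Pcna*, the sliding clamp of DNA replication, fell from 36.1, 33.3 and 29.2 FPKM to 28, 28.1 and 27.2 FPKM (-0.23 ± 0.08), and *Hmgb2* from 2.23, 2.07 and 1.54 FPKM to 0.796, 1.2 and 0.803 FPKM (-0.61 ± 0.13). *Prc1*, another of the 4, was listed at 0.851, 0.693 and 0.66 FPKM in Con and at 0.463, 0.484 and 0.354 FPKM in IR and passed the filter through Con only. In contrast *Bub1b*, of the spindle checkpoint, rose from 0.917, 0.546 and 0.538 FPKM to 1.86, 1.54 and 1.68 FPKM (0.70 ± 0.12). *Dcx*, the doublecortin gene of immature neurons, was at 2.5, 1.65 and 2.19 FPKM in Con and 1.8, 1.88 and 1.62 FPKM in IR, with overlap and an unadjusted p of 0.219. Of 16 tested genes of neuroblasts and immature granule neurons, 2 fell, *Marcksl1* (-0.34 ± 0.10) and *Mex3b* (-0.33 ± 0.09), and none rose (12.5% in all, against 13.9% of all tested genes). Of 13 tested stem cell genes, *Hopx*, a marker of quiescent stem cells and of astrocytes, fell from 69.1, 67.5 and 76.3 FPKM to 65.5, 54.8 and 57.3 FPKM (-0.26 ± 0.09), *Id4* fell (-0.24 ± 0.07) and *Frzb* rose (0.24 ± 0.10). Leaving out 1 library put the proliferation genes that fell at 1 to 3, those that rose at 1 or 2, and the neuroblast genes that fell at 2 to 4, with 4 without Con 3. No stem cell gene fell without IR 2, and none rose without Con 3, IR 1 or IR 3.

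Some markers of dentate granule cells rose and some of CA1 pyramidal cells fell, while most markers of either did not pass the test. Granule cells receive the input from the entorhinal cortex and CA1 pyramidal cells send the output. Of 18 tested granule cell markers, 6 rose and none fell (median 0.25), and 15 had a log2 fold change above 0. *Il16*, counted among the cytokine genes above, is 1 of the 6. Of 11 tested CA1 markers, 4 fell and none rose (median -0.31), and 10 had a log2 fold change below 0. *Rasl10a*, a Ras-like GTPase gene of granule cells, rose from 30.8, 23.7 and 25.1 FPKM to 42.6, 39.3 and 37.4 FPKM (0.57 ± 0.10, unadjusted p = 4.67e-04). *Lct*, the lactase gene, which granule cells express, rose from 7.6, 10.6 and 9.85 FPKM to 11.9, 12.3 and 13.2 FPKM (0.39 ± 0.11), and *Pitpnm2* from 54.4, 63.9 and 63.3 FPKM to 72.4, 69.3 and 73.4 FPKM (0.24 ± 0.08). The groups did not overlap for these genes, and Con 1 was the lowest library for *Lct* and *Pitpnm2*. *Man1a*, a mannosidase gene enriched in CA1, fell from 18, 15.4 and 17.6 FPKM to 9.38, 9.94 and 11.9 FPKM (-0.66 ± 0.10, unadjusted p = 1.43e-04). *Pou3f1*, a transcription factor of CA1, fell from 36, 34.2 and 32.7 FPKM to 18.9, 22.4 and 29.8 FPKM (-0.54 ± 0.14), and *Nov*, which encodes a secreted matrix protein, from 41.4, 31 and 52.6 FPKM to 20.9, 26.4 and 27.9 FPKM (-0.69 ± 0.18). Among the IR libraries IR 1 was lowest and IR 3 highest in all 3 genes. The other 12 granule cell markers and 7 CA1 markers did not pass the test. Of the defining granule cell genes, *Prox1* rose (0.30 ± 0.08), *Calb1*, which encodes calbindin, had a log2 fold change of -0.18 ± 0.13 (unadjusted p = 0.21) and *C1ql2* one of 0.11 ± 0.16 (unadjusted p = 0.517). *Calb1* was the marker that fell without Con 1. Of the defining CA1 genes, *Fibcd1* had one of -0.05 ± 0.08 (unadjusted p = 0.552) and *Wfs1* one of -0.34 ± 0.18 (unadjusted p = 0.0983). Leaving out 1 library gave 5 to 11 granule cell markers that rose, 11 of them without Con 2, and 4 to 6 CA1 markers that fell. Of 15 tested markers of CA2 and CA3 none had an unadjusted p under 0.05 in either direction (median 0.14), and of 7 of hilar mossy cells 1 fell, *Ociad2* (-0.23 ± 0.09). Under other scalings (size factors, quantile normalization, or a correction for length and GC) 2 to 4 of the CA2 and CA3 markers rose, and 2 with the replicate block. With 1 library left out up to 2 rose, 2 of them without Con 2, and *Ociad2* passed without Con 3 or IR 3 only.

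**Figure D3:**
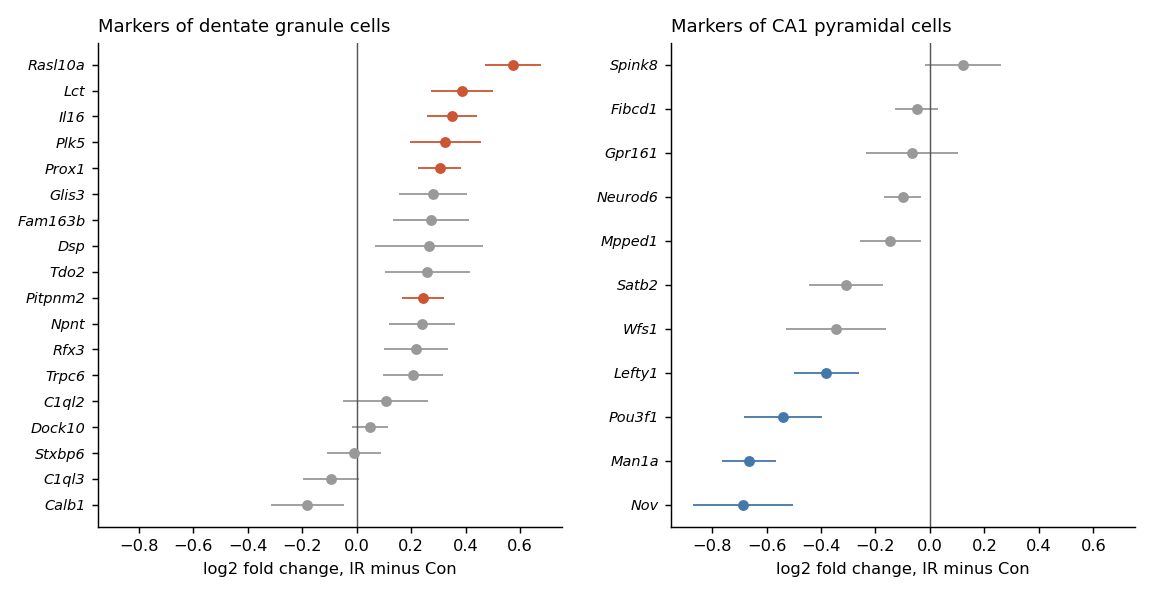
Log2 fold change (IR minus Con) with its standard error for each tested marker of dentate granule cells (18) and of CA1 pyramidal cells (11), coloured where the unadjusted p from limma was under 0.05. Granule cell markers range from -0.18 to 0.57 and CA1 markers from -0.69 to 0.12.

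Glutamate receptor genes passed the test about as often as all tested genes. AMPA receptors carry fast excitation, and the auxiliary protein encoded by *Cacng3* brings them to the synapse. Of 33 tested genes 4 fell and none rose (12.1% in all, against 13.9% of all tested genes in either direction and 6.89% that fell), with a list median of -0.02. The count that rose was 6 without Con 3. *Cacng3* fell from 34.9, 33.1 and 36.8 FPKM to 26.8, 25.9 and 29.3 FPKM (-0.34 ± 0.07, unadjusted p = 0.00135). *Gria3* fell from 57.2, 56.3 and 55.9 FPKM to 47, 47.6 and 49.8 FPKM (-0.23 ± 0.06) and *Gria2*, whose subunit sets calcium permeability, from 170.1, 175 and 162 FPKM to 139.9, 145 and 151 FPKM (-0.22 ± 0.07). These 3 genes fell with every single library left out, and in each of them all IR libraries were below all Con libraries. The most abundant subunit gene, *Gria1*, was at 305, 300.4 and 269 FPKM and 248, 264 and 275 FPKM and overlapped (unadjusted p = 0.0869). Of 14 tested GABA receptor genes, 2 fell, among them the subunit gene *Gabrb2* (-0.17 ± 0.06), and *Gabbr2*, of the metabotropic receptor, rose from 77.2, 78.5 and 79.5 FPKM to 86.2, 88.3 and 90.3 FPKM (0.17 ± 0.06). Among 36 tested genes of voltage-gated potassium channels 4 rose and 1 fell (13.9% in all, the same share as of all tested genes). Of these channel genes 1 rose without IR 2, and 2 rose without IR 1 or IR 3. The GABA receptor genes that fell numbered 1 to 3 with 1 library left out, and none rose without IR 2 or IR 3. *Kcng1*, a modulatory subunit, rose from 10.3, 11 and 10.8 FPKM to 16.8, 15.5 and 15.4 FPKM (0.53 ± 0.07, unadjusted p = 4.10e-05), and *Kcna4*, of an A-type channel, fell from 9.84, 10.9 and 8.23 FPKM to 5.66, 7.69 and 6.54 FPKM (-0.48 ± 0.12).

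Some genes of neuropeptides and their receptors rose, and most did not pass the test. Of 32 tested genes of either kind 7 rose, none fell and 25 did not pass. Of the 7, 6 were receptors, but receptors and peptides were not compared with each other. *Trhr*, the receptor of thyrotropin-releasing hormone, was listed at 1.82, 1.13 and 1.68 FPKM in Con and at 2.53, 2.79 and 2.4 FPKM in IR (0.50 ± 0.12). *Sstr1*, a somatostatin receptor gene, rose from 8.1, 5.86 and 5.74 FPKM to 8.76, 8.74 and 8.91 FPKM (0.39 ± 0.12) and *Sstr2*, of the same family, by 0.58 ± 0.16. *Tacr3*, the receptor of neurokinin B, rose from 0.382, 0.359 and 0.568 FPKM to 0.813, 0.923 and 0.928 FPKM (0.40 ± 0.11), at a low level. All IR libraries were above all Con libraries in these genes. *Oxtr*, the oxytocin receptor, rose from 2.56, 2.72 and 2.49 FPKM to 3.78, 3.2 and 3.09 FPKM (0.28 ± 0.09), and *Npy2r*, a receptor of neuropeptide Y, from 23.7, 26.3 and 23.3 FPKM to 28.6, 29.3 and 26.6 FPKM (0.20 ± 0.07). The peptide gene that rose was *Cort*, cortistatin, a ligand of the somatostatin receptors (0.92 ± 0.18). *Sst* itself was at 261, 190.1 and 320.3 FPKM and 229.6, 259 and 242 FPKM and *Npy* at 54.5, 53.1 and 58.6 FPKM and 54.6, 56 and 42.7 FPKM, both with overlap. Between 5 and 8 members rose with any 1 library left out, and 5 without Con 2 and IR 1. Up to 2 fell with 1 library left out, 2 of them without Con 2, and 3 without Con 2 and IR 1. Of 29 tested interneuron genes, 3 rose and 3 fell. *Slc32a1*, which loads GABA into vesicles, fell from 27.9, 25.4 and 27 FPKM to 24.8, 24.1 and 23.1 FPKM (-0.15 ± 0.06) and *Dlx6* from 2.08, 2.29 and 2.73 FPKM to 1.76, 1.81 and 1.36 FPKM (-0.35 ± 0.11), while *Gad1* and *Pvalb* had unadjusted p values of 0.456 and 0.157. The interneuron genes that fell numbered 0 without Con 3 or IR 3, 1 without Con 1 or IR 1 and 5 without Con 2, and 1 rose without IR 3. *Slc32a1* passed only with Con 2 left out, and under other scalings 1 or 2 interneuron genes fell.

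**Figure D4:**
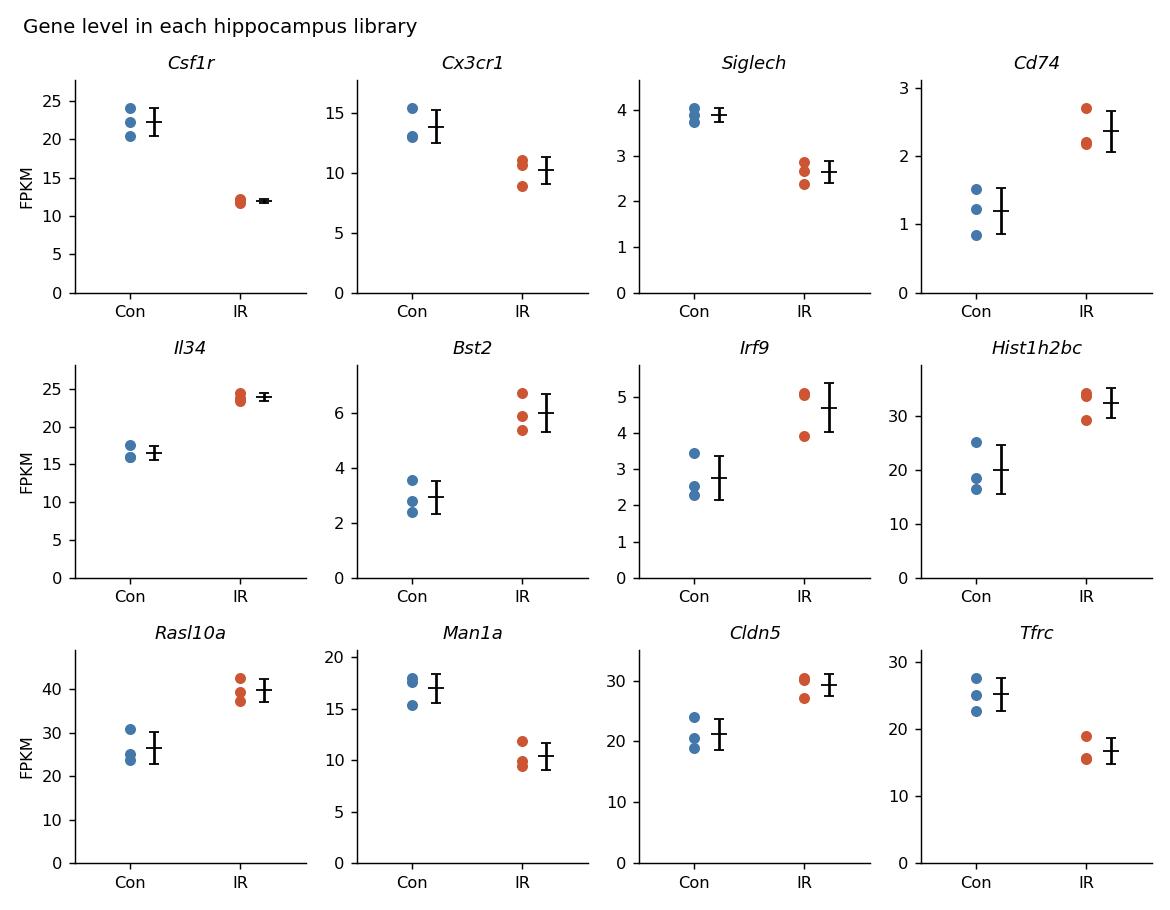
FPKM of 12 genes in each of the 3 Con (blue) and 3 IR (orange) libraries, with the mean and SD of each group beside the points. In all 12 genes, which were chosen with their values known, the Con and IR libraries do not overlap, as in 19.8% of all tested genes.

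Astrocytes support synapses and take up glutamate. Of 21 tested genes of these cells, 2 rose and 4 fell. *Serpina3n*, which reactive astrocytes secrete, rose from 24.5, 22.3 and 29.5 FPKM to 34.4, 31.9 and 35.8 FPKM (0.41 ± 0.10), whereas *Gfap*, the filament gene used to score reactivity, was at 212, 124 and 146 FPKM and 133, 171 and 144 FPKM (unadjusted p = 0.689). The glutamate transporter gene *Slc1a3* fell from 143, 144 and 140.2 FPKM to 126, 128 and 130.1 FPKM (-0.15 ± 0.06). *Gja1* and *Gjb6* encode the connexins of astrocytes, and the first fell (-0.20 ± 0.07) while the second rose (0.25 ± 0.08). *Mlc1*, a membrane protein gene of astrocyte endfeet, fell from 74.2, 69.1 and 67.9 FPKM to 57.7, 61.9 and 60.6 FPKM (-0.23 ± 0.06). The number of astrocyte genes that fell was 1 without Con 1 or IR 2 and 2 without Con 2 or IR 3, and 1 rose without IR 2. Under other scalings 2 to 4 fell.

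Of 20 tested genes of myelinating oligodendrocytes, 4 fell and none rose (median -0.14). *Mog* fell from 20.02, 17.1 and 19.7 FPKM to 15.7, 15.4 and 14.2 FPKM (-0.30 ± 0.08) and *Tspan2* from 25.7, 21.6 and 20.9 FPKM to 16.6, 19.7 and 15.2 FPKM (-0.39 ± 0.11). *Mag*, which joins myelin to the axon, fell from 53.2, 41.5 and 42.1 FPKM to 39.1, 38.7 and 32.2 FPKM (-0.30 ± 0.11), and *Opalin* from 19.2, 15.9 and 14.1 FPKM to 6.36, 13.4 and 10.2 FPKM (-0.71 ± 0.23). The IR libraries were below the Con libraries in the 4 genes, with *Opalin* lowest in IR 1. *Mbp*, the basic protein of myelin, was at 741, 607 and 712 FPKM and 773, 679.9 and 614 FPKM, a log2 fold change of 0.00 ± 0.11. Without IR 1, 8 members fell, and without Con 1, 2 did. Among 16 tested genes of oligodendrocyte precursors 2 fell and none rose (12.5% in all, against 13.9% of all tested genes). *Pdgfra*, which defines these cells, was at 9.04, 8.74 and 9.06 FPKM and 7.81, 8.47 and 8.04 FPKM (unadjusted p = 0.0864 from limma). The genes that fell were *Bcas1*, of newly formed oligodendrocytes, from 44.5, 36.5 and 30.5 FPKM to 25.4, 29.9 and 27.4 FPKM (-0.40 ± 0.13), and *C1ql1* (-0.16 ± 0.07). The precursor genes that fell numbered 1 to 3 with 1 library left out and 0 without Con 2 and IR 1.

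Some endothelial genes rose, among them *Cldn5* and *Mfsd2a* of the blood-brain barrier, and most did not pass the test. Of 32 tested, 5 rose, 2 fell and 25 did not pass. Genes of the barrier were not counted as a list of their own. *Cldn5*, the claudin of the tight junctions between endothelial cells, rose from 24, 20.5 and 19 FPKM to 30.1, 30.5 and 27.2 FPKM (0.45 ± 0.09, unadjusted p = 0.00117). *Mfsd2a*, a lipid transporter that restrains transport by vesicles, rose from 4.85, 5.04 and 6.72 FPKM to 7.31, 7.2 and 7.57 FPKM (0.37 ± 0.11), and *Eng*, a co-receptor of BMP9, from 4.95, 6.16 and 5.28 FPKM to 7.91, 6.92 and 6.73 FPKM (0.34 ± 0.10). These 3 genes rose with every single library left out, although the count for the list was 3 without Con 2 or IR 3, and 1 fell without Con 1, IR 2 or IR 3. The transferrin receptor gene *Tfrc*, by which iron is taken up, fell from 27.6, 25.1 and 22.7 FPKM to 15.7, 19 and 15.4 FPKM (-0.56 ± 0.10, unadjusted p = 5.02e-04). *Pecam1*, a general marker of endothelial cells, was at 5.84, 4.26 and 5.07 FPKM and 5.08, 5.44 and 5.89 FPKM and overlapped. Of 13 tested mural cell genes 3 fell, *Rgs4*, *Tagln* and *Notch3*, but *Pdgfrb*, which defines pericytes, had an unadjusted p of 0.708, and none fell without Con 2 or without IR 1 and 1 without Con 1 or IR 2. Fibroblasts of the meninges and vessels were represented by 25 tested genes, of which 5 rose and none fell (median 0.26). *Islr* rose from 4.33, 4.83 and 5.26 FPKM to 6.64, 6.85 and 6.13 FPKM (0.38 ± 0.09), *Slc6a13*, a GABA and taurine transporter, from 1.36, 1.07 and 2.55 FPKM to 2.79, 3.3 and 3.25 FPKM (0.67 ± 0.19), and *Ogn*, a small proteoglycan gene, from 1.0, 3.58 and 3.49 FPKM to 5.37, 5.15 and 3.99 FPKM (0.75 ± 0.30). *Col1a1* was at 2.11, 1.23 and 2.46 FPKM and 2.09, 3.39 and 2.5 FPKM and overlapped. The list's count was 12 without Con 3 and 3 without IR 2. Of 13 tested markers of thalamus and habenula 2 rose, *Lhx9* (0.33 ± 0.09) and *Nwd2* (0.30 ± 0.11), and the summed FPKM of the list was 78.1 in IR 1 against 45.1 to 55.3 in the other libraries (1 rose without Con 1 or IR 1). The part of adjacent tissue in these values was not tested. Of 15 tested ependymal genes 1 fell, *Sntn* (-0.42 ± 0.18), and no gene rose or fell among the 12 choroid plexus, 7 striatal, 16 neocortical and 4 erythrocyte genes tested. Of 22 genes of T cells, B cells and granulocytes in the files 1 passed the filter, and it neither rose nor fell. Without Con 3, 3 neocortical, 2 erythrocyte and 1 striatal genes rose. Without Con 2, 2 neocortical genes fell, and *Sntn* was 1 of 3 ependymal genes that fell without Con 1 or IR 2.

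Of the genes of the circadian clock and its output, *Dbp*, *Ciart*, *Nr1d2* and *Usp2* fell, and *Nfil3* and *Tef* rose. Clock proteins drive *Dbp*, *Nr1d2*, *Ciart* and *Usp2* with a daily rhythm, and NFIL3 binds the same promoter sites as DBP and represses them. Of 24 tested genes, 5 fell, 2 rose and 17 did not pass the test. *Dbp* was listed at 26.7, 24.7 and 31.3 FPKM in Con and at 14.2, 15.8 and 16.2 FPKM in IR (-0.80 ± 0.10, unadjusted p = 2.98e-05, adjusted p = 0.0823 from limma). *Ciart* fell from 5.87, 6.32 and 6.25 FPKM to 3.29, 4.31 and 4.34 FPKM (-0.53 ± 0.10), *Nr1d2* from 20.4, 21.2 and 20.3 FPKM to 17.2, 16.4 and 17.2 FPKM (-0.27 ± 0.06), and *Usp2* from 25.9, 30.2 and 23.2 FPKM to 18.9, 21.1 and 19.6 FPKM (-0.39 ± 0.10). *Nfil3* rose from 3.39, 4.05 and 3.34 FPKM to 5.6, 4.75 and 5.47 FPKM (0.45 ± 0.10), and *Tef*, an output gene and a relative of *Dbp*, rose from 75.2, 80.3 and 83.6 FPKM to 98.5, 96.3 and 101 FPKM (0.30 ± 0.07). In all 6 genes the groups were separate and the direction passed the test with every single library left out. Of the core genes of the loop, *Arntl* and *Cry1* did not pass the test (unadjusted p = 0.139 and 0.488). The time of day at which tissue was taken is not given in the sources used here.

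RNA-binding proteins that are induced by mild cold fell. *Rbm3* was listed at 103, 96.4 and 79.2 FPKM in Con and at 38.4, 59 and 56.2 FPKM in IR (-0.86 ± 0.17, unadjusted p = 8.04e-04), and *Cirbp*, its relative, at 95.6, 74.5 and 52.6 FPKM and 24.7, 40.3 and 36.8 FPKM (-1.10 ± 0.24). Con 3 was the lowest of the Con libraries and IR 1 the lowest of all for both. The list they belong to, with splicing factors and nuclear RNAs, had 28 tested genes, 4 of which fell and 2 of which rose. The other 2 that fell were *Malat1*, a nuclear noncoding RNA, from 1005, 842 and 716 FPKM to 572, 641 and 635 FPKM (-0.46 ± 0.12), and *Srsf5*, a splicing factor gene, from 251, 218 and 136 FPKM to 113, 136 and 135 FPKM (-0.61 ± 0.21). *Srsf5* in Con 3 was as low as in IR 2 and IR 3, and 12 members of the list fell without Con 3. *Ccnl1*, a cyclin of splicing, rose from 10.7, 10.7 and 12.6 FPKM to 13.7, 14.2 and 13.8 FPKM (0.28 ± 0.08), and 1 member of the list rose with any library but Con 3 left out.

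For genes of ribosomes and respiration the counts turned on single libraries, Con 3 most of all. Of 83 tested cytosolic ribosomal protein genes 2 rose and 2 fell, and of 79 tested nuclear genes of the respiratory chain 4 rose and 9 fell (4.82% and 16.5% in all, against 13.9% of all tested genes). *Cox6a1*, a subunit of cytochrome oxidase, was at 688, 664 and 503 FPKM in Con and 454, 519.7 and 494 FPKM in IR (-0.33 ± 0.13), and *Rpl27* at 180.1, 166 and 126 FPKM and 123, 132 and 122 FPKM (-0.30 ± 0.13). In both genes Con 3 lies within the range of IR and below Con 1 and Con 2. Without Con 3, 12 ribosomal genes rose and 24 fell, and 10 respiratory genes rose and 31 fell. With Con 3 and without Con 1 or Con 2, at most 1 gene of either list fell, and without IR 1, 7 ribosomal genes rose and 1 respiratory gene fell. Without IR 2 or IR 3, 5 or 4 respiratory genes fell, 1 rose in each fit, and no ribosomal gene rose. Without Con 2 no gene of either list rose, and without Con 1, 2 respiratory genes and 1 ribosomal gene did. Under other scalings 3 to 6 ribosomal genes rose and 2 to 4 fell. *Ndufs1*, of complex I, fell with every single library left out, from 63, 60.6 and 53.3 FPKM to 50.2, 48.8 and 49.3 FPKM (-0.25 ± 0.07).

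Genes of cholesterol and fatty acid synthesis passed the test about as often as all tested genes. Of 32 tested 3 rose and 1 fell (12.5% in all, against 13.9%), and without Con 3, 6 rose and 4 fell. *Dhcr7*, of the last step of cholesterol synthesis, rose from 9.48, 10.005 and 12.1 FPKM to 12.5, 13.2 and 12.9 FPKM (0.28 ± 0.09), and *Ebp* from 5.92, 5.94 and 6.18 FPKM to 7.89, 7.51 and 6.85 FPKM (0.26 ± 0.07). Both separated the groups, and *Dhcr7* passed in 3 of the 6 fits with 1 library left out and *Ebp* in all 6. Of 22 tested receptors and targets of glucocorticoids, the stress hormones of the adrenal gland, *Tsc22d3* fell from 23.3, 23.4 and 24.4 FPKM to 16.5, 17.7 and 21.6 FPKM (-0.34 ± 0.10) and none rose, while the receptor gene *Nr3c1* was at 16, 15.5 and 17.1 FPKM and 14.4, 16 and 15.7 FPKM (unadjusted p = 0.333). Without Con 3, 2 of these genes rose.

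Among genes of signalling pathways both directions occurred. Wnt proteins maintain stem cells and vessels of the brain, and of 30 tested Wnt and Notch genes 3 rose and 3 fell. *Wnt7a* rose from 4.88, 3.76 and 3.91 FPKM to 5.64, 6.23 and 6.45 FPKM (0.46 ± 0.10), *Wnt7b* from 15.2, 13 and 15.3 FPKM to 16.3, 18.3 and 18.9 FPKM (0.28 ± 0.09), and their target *Axin2* had an unadjusted p of 0.345. *Wnt9a* fell from 2.28, 4.8 and 4.09 FPKM to 1.47, 2.03 and 1.69 FPKM (-0.76 ± 0.20). The Wnt and Notch genes that fell numbered 1 without Con 2 and 5 without Con 3. Of 26 tested genes of BMP and TGF-beta signalling 5 fell and 1 rose. *Smad7*, an inhibitor in this pathway, fell from 7.74, 7.74 and 7.37 FPKM to 5.03, 5.62 and 6.33 FPKM (-0.38 ± 0.09), and *Inhbb*, a subunit of activin, from 3.45, 3.5 and 3.32 FPKM to 2.33, 2.34 and 3.24 FPKM (-0.29 ± 0.11). The count that fell was 1 without IR 2 and 3 without Con 2, and none rose with any library but Con 3 left out. Of 22 tested genes of the feedback on ERK kinases, *Spry2* fell from 22.2, 24.8 and 20.6 FPKM to 16.9, 17.6 and 18.6 FPKM (-0.33 ± 0.08), *Shb* fell (-0.55 ± 0.09) and *Etv4* rose (0.26 ± 0.11). These were 13.6% of the list, against 13.9% of all tested genes. Of 28 tested matrix genes 2 rose and 4 fell, among them *Thbs4* (-0.72 ± 0.11), a thrombospondin, and *Hapln1*, a link protein of perineuronal nets (-0.16 ± 0.07). Of 13 tested neurotrophin and growth factor genes *Vegfa* rose (0.17 ± 0.07). With 1 library left out 1 to 4 matrix genes rose and 2 or 3 fell (1 to 4 fell under other scalings), and 0 to 2 growth factor genes rose.

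The other 2 genes with an adjusted p under 0.05 were *Snord15b* and *Gm2694*. *Snord15b*, which guides the modification of ribosomal RNA, was at 0 FPKM in each Con library and at 14.5, 15.1 and 22.9 FPKM in IR, so that it passed the filter through IR only. Of the small RNA genes, 121 of 124 were under the filter. The summed FPKM of the 124 varied widely between libraries, at 194, 1410 and 2319 in Con 1 to 3 and at 13498, 89.7 and 155 in IR 1 to 3. *Gm2694* fell from 2.79, 3.85 and 3.13 FPKM to 0.877, 1.04 and 1.08 FPKM (-1.08 ± 0.11, adjusted p = 0.0424 from limma).

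Outside these lists, the genes with the lowest p among those past the fold of 1.5 and without overlap came from many kinds of genes. *Lrrc51* led those that rose, at 3.02, 2.91 and 3.14 FPKM in Con and 5.36, 5.7 and 4.74 FPKM in IR (0.64 ± 0.09, unadjusted p = 7.18e-05). *Dio3*, which inactivates thyroid hormone, rose from 1.81, 1.19 and 1.7 FPKM to 3.63, 3.81 and 2.86 FPKM (0.79 ± 0.13), and *Nfya*, a subunit of the factor that binds CCAAT boxes, from 4.35, 4.27 and 5.08 FPKM to 8.76, 6.61 and 6.88 FPKM (0.59 ± 0.11). *Dnase1l2*, a DNase gene, also rose from 1.44, 1.23 and 1.97 FPKM to 2.91, 3.59 and 3.16 FPKM (0.74 ± 0.13). *Sap25* was listed at 0, 0 and 0.00286 FPKM in Con and at 1.53, 0.52 and 2.07 FPKM in IR, and passed the filter through IR only. *Zmym1* rose from 5.26, 5.4 and 8.2 FPKM to 13, 10.2 and 11.5 FPKM (0.80 ± 0.16) and *Rnf32* from 3.76, 3.12 and 4.9 FPKM to 6.23, 7.13 and 6.72 FPKM (0.66 ± 0.13). Of these, *Lrrc51*, *Dio3*, *Nfya*, *Dnase1l2*, *Zmym1* and *Rnf32* rose with every single library left out. Among genes that fell, *Tnni1*, a troponin gene, went from 2.02, 1.83 and 1.42 FPKM to 0.732, 0.976 and 0.775 FPKM (-0.59 ± 0.12). *Mafk*, a small Maf factor that pairs with NRF2, went from 6.7, 7.56 and 5.12 FPKM to 3.22, 3.64 and 4.95 FPKM (-0.60 ± 0.16), and *Adgrl2*, an adhesion receptor at synapses of CA1, from 8.65, 8.19 and 11.6 FPKM to 4.54, 5.34 and 7.52 FPKM (-0.63 ± 0.17). *Crybb1*, a crystallin gene that microglia also express, fell from 4.31, 3.21 and 2.58 FPKM to 2.28, 1.23 and 1.71 FPKM (-0.67 ± 0.18). Of the 40 genes past the fold that fell, Con 1 was the highest library in 27 and IR 1 the lowest in 28, and Con 3 lay within 1.5-fold of the IR mean in 21. Of the 34 that rose, Con 3 was the lowest library in 5 and IR 1 the highest in 18, and Con 3 lay within 1.5-fold of the IR mean in 14.

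The same contrast in the cortex, from 3 Con and 3 IR libraries, shows where the hippocampus differed. The difference of the fold changes was tested as an interaction of irradiation and tissue in 14459 genes over the 12 libraries. It had an unadjusted p under 0.05 in 1500 genes (10.4%) and an adjusted p under 0.05 in 12 (0.083%). None of the 14459 genes had an adjusted p under 0.05 from limma with the replicate number as a block (1503 at an unadjusted p), without trend and robust variances (1478), without IR 1 or IR 2 of the hippocampus (1279 and 1232), or without Con 2 and IR 1 (1029). The labels do not say whether same-numbered libraries of the 2 tissues came from the same mouse, and deviations of such pairs from their group means correlated at -0.0826 to 0.173 across genes. Among the lists, that of genes induced by neuronal activity held the most of them. Of 41 tested, 3 rose and 2 fell in the hippocampus (12.2% in all, against 13.9% of all tested genes). In the cortex 28 rose and 1 fell, against 8.16% and 5.94% of all genes tested there. The interaction p from limma was under 0.05 for 19, each with the lower fold change in the hippocampus. That number was 15 to 25 with any 1 of the 12 libraries left out, 14 without Con 2 and IR 1 of the hippocampus and 29 with the block, and 23 to 31 rose in the cortex with 1 cortex library left out. *Nptx2*, which gathers AMPA receptors, fell in the hippocampus from 12.2, 13.4 and 13.7 FPKM to 11.5, 11 and 10.8 FPKM (-0.22 ± 0.07), its cortex log2 fold change was 0.58, and the difference was -0.80 (unadjusted p = 1.33e-05). *Vgf*, a neuropeptide precursor gene, fell as well (-0.18 ± 0.07 against 0.40 in the cortex, difference -0.59, unadjusted p = 0.00119). *Fos* rose in the hippocampus from 1.34, 2.87 and 3.19 FPKM to 4.03, 3.46 and 5.31 FPKM (0.63 ± 0.22), with Con 1 lowest, and the difference from the cortex did not pass the test (unadjusted p = 0.274). The number that rose in the hippocampus was 0 without IR 3, 1 without Con 2 and 6 without Con 3. Of 22 ERK feedback genes tested in the hippocampus, 10 had an interaction p under 0.05, all lower in the hippocampus (9 to 13 with 1 library left out).

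Other lists differed between the tissues as well. Of 28 genes of cold-inducible RNA-binding proteins and splicing factors, 12 had an interaction p under 0.05, 11 with the lower fold change in the hippocampus, and 10 rose in the cortex. The count of 11 was 3 to 18 with 1 library left out, 3 without Con 2 and 18 without Con 3 of the hippocampus, and 4 without Con 2 and IR 1. Of 24 clock genes 10 had one, 6 lower and 4 higher in the hippocampus (4 to 8 and 2 to 4 with 1 library left out), *Tef* with a difference of 0.34 (unadjusted p = 6.89e-04), and of 32 genes of cholesterol and fatty acid synthesis 10 had one, 9 of them higher in the hippocampus (4 to 9 with 1 library left out), *Dhcr7* with 0.42 (unadjusted p = 0.00258).

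Among glial and stromal genes the differences went both ways. Of 20 myelin genes, 7 had an interaction p under 0.05, all lower in the hippocampus, where the median was -0.14 against 0.20 in the cortex. The number was 1 without Con 1 or IR 3 of the hippocampus or Con 3 of the cortex, 2 without IR 2 of the cortex, and at most 10 with any other library left out. For *Mog* the difference was -0.36 (unadjusted p = 0.0151). Of the 25 fibroblast genes tested in both tissues, 8 had an interaction p under 0.05, all higher in the hippocampus, *Islr* with a difference of 0.67 (unadjusted p = 1.71e-04), and 4 to 14 did with 1 library left out, 14 of them without Con 3 of the hippocampus. Perivascular macrophage genes had 4 of 9, all higher in the hippocampus, *Mrc1* with 0.79 (unadjusted p = 0.00108), but 1 without IR 1 of either tissue and 1 without Con 2 and IR 1 of the hippocampus. For microglia 1 of 28 genes had an interaction p under 0.05, and *Csf1r* changed by -0.80 on the log2 scale in the cortex. For the chaperones of the endoplasmic reticulum it was 1 of 35 and for interferon genes 2 of 32, while without Con 3 of the hippocampus 6 chaperone genes had the lower and 3 the higher fold change there, and without IR 1 of it 3 the lower and 1 the higher. The interferon genes with the higher fold change in the hippocampus numbered 1 to 3 with 1 library left out. CA1 markers *Man1a* and *Pou3f1* were at 0.10 and 0.08 in the cortex, with differences of -0.76 (unadjusted p = 5.55e-05) and -0.62 (unadjusted p = 0.00845). The value columns are named differently for the libraries of the 2 tissues.

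**Figure D5:**
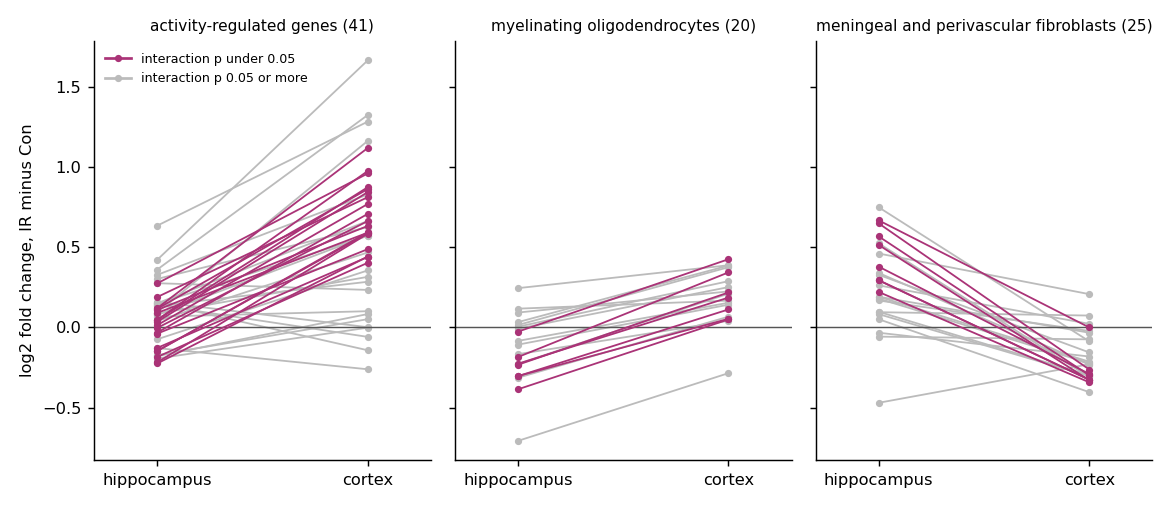
Log2 fold change (IR minus Con) of the same gene in the hippocampus and the cortex, joined by a line, for genes tested in both tissues in 3 lists with their number in parentheses, coloured where the unadjusted interaction p from limma was under 0.05. Most lines rise from hippocampus to cortex for activity-regulated genes (medians 0.08 and 0.59) and myelinating oligodendrocytes (-0.14 and 0.20), and most fall for fibroblasts (0.26 and -0.23).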

How the data were processed

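RNA sequencing was analysed in 6 hippocampus libraries, 3 Con and 3 IR, beside 6 cortex libraries for the test of tissue. The authors deposited 1 table of FPKM per library, made with TopHat on mm10 per the submitters' processing notes. The labels name total RNA taken with Trizol, the study's methods name a column kit and selection of poly(A) RNA, and the annotation counted is not given in the sources used here. Tables hold no counts, so depth is known only relatively: the steps between low FPKM values put the libraries within 1.12-fold of each other, and summed FPKM ran from 359773 to 393447.

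Symbols at 0.5 FPKM or more in at least 3 of the 6 libraries were kept, and log2(FPKM + 1) was fitted with limma 3.58.1 (R 4.3.3, trend and robust variances) over the hippocampus libraries, with Benjamini-Hochberg adjustment over all 14043 genes. A fold on this scale understates the change of low genes. The interaction of tissue and irradiation was fitted over 12 libraries. An exact permutation test of 3 against 3 libraries cannot go below p = 0.1 and was not used. The fit was tested on simulated data.

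The genes, 51 gene lists and tests were chosen with earlier results of these data known. Named genes were, by a written rule, the leading genes past a fold of 1.5 without overlap, the key members of each list, and members that passed the test, the lowest p first. Other members were chosen for the text after their values were seen. Some genes of the lists are not reported here. Alternatives were another pseudocount, a stricter filter, other scalings, a replicate block, no trend, corrections for transcript length and GC content, and libraries left out. Promoters were the 250 bases before the lowest start of each gene in RefSeq on GRCm38.p6. Python 3.11.15 and matplotlib 3.10.9 were used.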

Additional observations from a re-analysis of the deposited data

Results flagged for a closer look

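The fold change differed between hippocampus and cortex at an adjusted interaction p under 0.05 from limma for 12 genes, with the difference given as hippocampus minus cortex on the log2 scale. With the replicate number as a block, without trend and robust variances, or without IR 1 or IR 2 of the hippocampus the number was 0 (1503, 1478, 1279 and 1232 at an unadjusted p under 0.05). The adjusted p values lay between 0.0292 and 0.0359, and in 10 of the genes the difference was below 0. *Egr3*, an immediate early gene, was at 34.2 ± 4.24 FPKM in Con and 35.2 ± 2.21 FPKM in IR of the hippocampus (SD, n = 3) and at 35.9 ± 1.81 and 71.6 ± 4.27 FPKM in the cortex, a difference of -0.93. *Homer1*, of the postsynaptic scaffold, gave -0.81, *Nptx2* -0.80, *Bdnf*, the neurotrophin gene, -0.74, and the immediate early gene *Ier5* -0.73. *Galnt9* differed by -0.77, *AI414108* by -0.69, *Etv5*, a transcription factor downstream of ERK, by -0.65, *Ephb3*, an ephrin receptor gene, by -0.62, and *Synj2* by -0.55.

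The other genes had the higher fold change in the hippocampus. *Mycl*, of the MYC family, was at 12.04 ± 0.707 FPKM in Con and 14.7 ± 0.468 FPKM in IR of the hippocampus and at 3.69 ± 0.321 and 2.40 ± 0.0556 FPKM in the cortex (SD, n = 3), a difference of 0.73. *Il34* was at 16.5 ± 0.907 and 23.9 ± 0.543 FPKM in the hippocampus and at 26.2 ± 0.848 and 26.4 ± 0.853 FPKM in the cortex, a difference of 0.50.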

How the results depend on the processing

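The 74 genes past a fold of 1.5 and an unadjusted p under 0.05 became 223 with a pseudocount of 0.1 and 243 where the fold was the quotient of the group means, since a pseudocount of 1 shrinks the fold of low genes, and ran from 52 to 217 with 1 library left out, 217 without Con 3. The 4 genes with an adjusted p under 0.05 became 2 with at least 1 FPKM in every library, 0 without Con 2 and IR 1 (769 at an unadjusted p under 0.05 from limma) and 0 to 880 with 1 library left out (1161 to 3613 at an unadjusted p). The 12 genes of the interaction became 0 without trend and robust variances, 0 without Con 2 and IR 1 of the hippocampus and 0 to 487 with 1 library left out, 0 without IR 1 or IR 2 of the hippocampus or Con 1, IR 1, IR 2 or IR 3 of the cortex, and 487 without Con 3 of the hippocampus. Limma gave 1029 to 2887 genes at an unadjusted p in these fits and 1500 as reported. Leaving out cortex libraries was chosen after seeing the data. The cause of these changes was not tested, except for the pseudocount. Of the 1958 genes with an unadjusted p under 0.05, 50.6% were higher in IR and 41.9% of those without Con 3. Of the 74 genes, 31 were shared without Con 2 and IR 1, 33 without Con 1 and 66 without Con 3.

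Libraries share replicate numbers, but deviations of same-numbered Con and IR libraries from their group means correlated at -0.393, -0.154 and -0.085 across genes, so same-numbered libraries did not deviate alike. With 3 libraries per group these values cannot show whether the numbers mark a shared preparation. With the replicate number as a block 80 genes passed the fold and p, 1 an adjusted p under 0.05, 1423 an unadjusted p, and 0 the interaction. Other scalings moved the median of all genes by less than 0.0104 on the log2 scale. Depth in reads is unknown, so precision at low FPKM could not be computed. Genes that neither rose nor fell had fold changes of either sign: with 1 library left out the log2 fold change ran from -0.0748 to 0.268 for *C1ql2*, -0.107 to 0.00631 for *Fibcd1*, -0.0959 to 0.135 for *Ddit3*, -0.00997 to 0.143 for *Egr3*, -0.908 to 0.994 for *Folr1*, -0.242 to 0.138 for *Gfap*, -0.0139 to 0.0888 for *Homer1*, -0.0826 to 0.0831 for *Mbp*, -0.0799 to 0.0489 for *Mdm2* and -0.248 to 0.127 for *Sst*. Without Con 2 and IR 1 it was -0.168 for *Mbp* and 0.0228 for *Mdm2*, and with the correction for length and GC content -0.00427 and 0.00427.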

Other observations

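In Con 1, 3 genes of blood cells, chosen after their values were seen, stood apart from the other libraries. Beside *S100a8*, the chemokine gene *Ccl5* stood at 18.8 FPKM there and at most at 0.312 FPKM in the others, and *Alas2*, which starts heme synthesis in red cells and neither rose nor fell, at 22.5 FPKM against 0.773 to 1.34 FPKM. Other genes of these cells stood near the other libraries. *S100a9* was at 0.652 FPKM in Con 1 and at most at 0.359 FPKM in the others, and the T cell gene *Cd3e* at 0.0476 FPKM in Con 1 and 0.0465 FPKM in Con 2. Of the summed FPKM of genes of T cells, B cells and granulocytes, 407 in Con 1 and 1.38 to 2.03 in the other libraries, *S100a8* and *Ccl5* made up 401. Without *Alas2*, the erythrocyte genes summed to 46.9 FPKM in Con 1 and to 44.4 to 105 FPKM in the others.

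The 927 genes that fell and could be matched to a transcript had a median GC content of 48.2%, and the 944 that rose had 52.6%, against 49.9% for all 13515 tested genes with a matched transcript. Removing a loess trend on GC content and transcript length, an alternative chosen after seeing the data, left 1930 genes with an unadjusted p under 0.05 from limma, against 1958 without it, and 64 genes that also passed the fold of 1.5, against 74.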
